A study of Mus musculus with 9 samples.

Results

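Glutathione transferases were examined in liver RNA from mice that lack the microRNA miR-122. The set comprised 10 genes of 30519 in the deposited table, taken by gene symbol: Gsta1, Gsta2, Gsta3 and Gsta4 of the alpha class, Gstm1, Gstm2, Gstm3 and Gstm4 of the mu class, Gstp1 of the pi class and Gstt1 of the theta class. They occupied 11 rows, because Gstp1 stood in 2 rows with identical values under 2 gene identifiers and was counted once. The genes were chosen by their knockout and control abundances in these same libraries, so their knockout minus control values below are a description without a test.

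The series measured polyA RNA from the livers of 9 mice, all 6 weeks old. The knockout group (KO) held 4 mice labelled KO for miR-122, 1 female (KO 1) and 3 males (KO 2 to KO 4). The control group (WT) held 5 floxed littermates, 3 females (WT 1 to WT 3) and 2 males (WT 4 and WT 5), which carry the floxed allele and are therefore not unmodified animals. The sources used here name no Cre driver, timing or strain, and do not say which animals shared a litter. Each mouse is 1 replicate.

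Glutathione transferases attach the tripeptide glutathione to electrophilic compounds, the second phase of detoxification, and the conjugates leave the cell through membrane pumps. The cytosolic enzymes work as dimers and fall into classes by sequence; liver is rich in the alpha, mu and pi classes, and several members differ between male and female mouse liver. Many are transcribed under the stress factor NRF2 and the xenobiotic receptors CAR, PXR and AHR.

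Values are normalised abundances, which the authors derived with kallisto and sleuth. The log ratio of the read-scale mean to the value followed log transcript length with a slope of 1.03 over 5044 transcripts, so levels of different genes can be set side by side per length. Normalised reads on the listed transcripts came to 15.04 to 16.9 M in KO and 18.1 to 20.4 M in WT libraries. They are the values rescaled by 1 constant per transcript, and so are no separate measure of how deeply each library was sequenced. The values themselves summed to 0.711 to 0.869 M in KO and 0.873 to 1.17 M in WT libraries, so the scale matters: scaling every library to 1 total moved the median log2 difference of all 10950 transcripts tested from 0.03 to 0.37. The column of WT 3 is named male for a mouse whose labels say female; it was matched by mouse number, and its female-liver marker sum lay with the other WT females (2362 to 2594, against 7.59 to 52.0 in WT males).

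Several members are so alike in sequence that reads are hard to assign, and this bears on which of their values can be read alone. Gsta1 (chr9:78230656-78242684, + strand) and Gsta2 (chr9:78331018-78347158, - strand) were 96.7% identical over their listed transcripts (coordinates and transcripts from GENCODE M21 on GRCm38, the same assembly as mm10). The lines below show a stretch of 55 coding bases, inside 1 exon, in which the pair differs at 1 base, given in capitals.
Gsta1: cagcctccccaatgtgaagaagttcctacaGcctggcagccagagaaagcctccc
Gsta2: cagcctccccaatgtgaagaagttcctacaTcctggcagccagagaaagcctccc
The Gsta1 stretch lies at chr9:78242473-78242527 and the Gsta2 stretch at chr9:78331175-78331229. Of the 31-base words of the Gsta1 transcript, 92.2% also occur in transcripts of other genes, and 87.8% of all its words occur in the single predicted gene Gm3776, which has no row among the values used here. For Gsta2 the share was 75.6%.

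The mu genes Gstm1 (chr3:108012255-108017973, - strand) and Gstm3 (chr3:107963696-107969283, - strand) were 78.6% identical, and their coding ends are more readily told apart. The next lines give the last 80 coding bases of each, with the 16 differing bases in capitals.
Gstm3: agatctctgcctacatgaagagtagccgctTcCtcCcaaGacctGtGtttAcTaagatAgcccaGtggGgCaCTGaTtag
Gstm1: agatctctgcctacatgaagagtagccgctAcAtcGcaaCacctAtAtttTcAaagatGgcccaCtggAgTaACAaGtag
These stretches lie at chr3:107964207-107964286 and chr3:108012689-108012768. Of the 31-base words of Gstm3, 37.7% occur in transcripts of any other gene, with the largest share in the predicted gene Gm8834 (24.7%). For Gstm1 the share was 34.3%, with the largest in Gstm2-ps1 (26.9%). These shares are not words that Gstm1 and Gstm3 hold in common.

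Gstp1 (chr19:4035407-4037985, - strand) and its neighbour Gstp2 (chr19:4040285-4042263, - strand) were 90.4% identical. The first 87 coding bases of each follow, with their 6 differing bases in capitals.
Gstp1: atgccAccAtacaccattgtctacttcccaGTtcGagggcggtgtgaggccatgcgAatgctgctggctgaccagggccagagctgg
Gstp2: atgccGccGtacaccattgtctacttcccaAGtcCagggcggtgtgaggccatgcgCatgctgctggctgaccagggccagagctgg
Of the Gstp1 words, 67.5% occur in Gstp2. The share of words found in other genes was 19.5% for Gstm2, 3.6% for Gstm4, 1.1% for Gsta3, 0.70% for Gstt1 and 0 for Gsta4, so these members can be read with fewer reservations. In the authors' deposited table the technical part of the variance was 24.4% of the observed variance for Gsta1 and 27.7% for Gstm4, and at most 3.0% for each of the other 8 members.

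Which transferases differed between KO and WT livers was the comparison the series was built for. In KO livers Gsta1 and Gstm3 stood highest above WT, by 14.6 and 9.46 times in the ratio of means, and Gstm1 and Gstm2 stood at 1.99 and 2.04 times. The KO and WT values of these 4 members did not overlap. The other 6 members overlapped: Gsta4 and Gstm4 were higher on average, Gsta2 and Gstt1 nearly level, Gsta3 lower, and Gstp1 pointed up in the KO female and down in KO males. In the fit across all transcripts (limma on log2 of the value plus 1, adjusted p at 0.05), 4 of the 10 members were called higher and 0 lower, with 1 lower at an unadjusted p under 0.05. All 10 passed the filter of a mean of at least 1. The same fit called 35.9% of all transcripts, 21.4% higher and 14.5% lower, and 31.1% had groups that did not overlap. The authors' deposited q was under 0.05 for 4 members and for 25.2% of the transcripts that had one. Since the members were listed with this contrast known, nothing is read from these counts. The median log2 difference of the 10 members was 0.49, beside 0.03 for all transcripts.

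**Figure D1:**
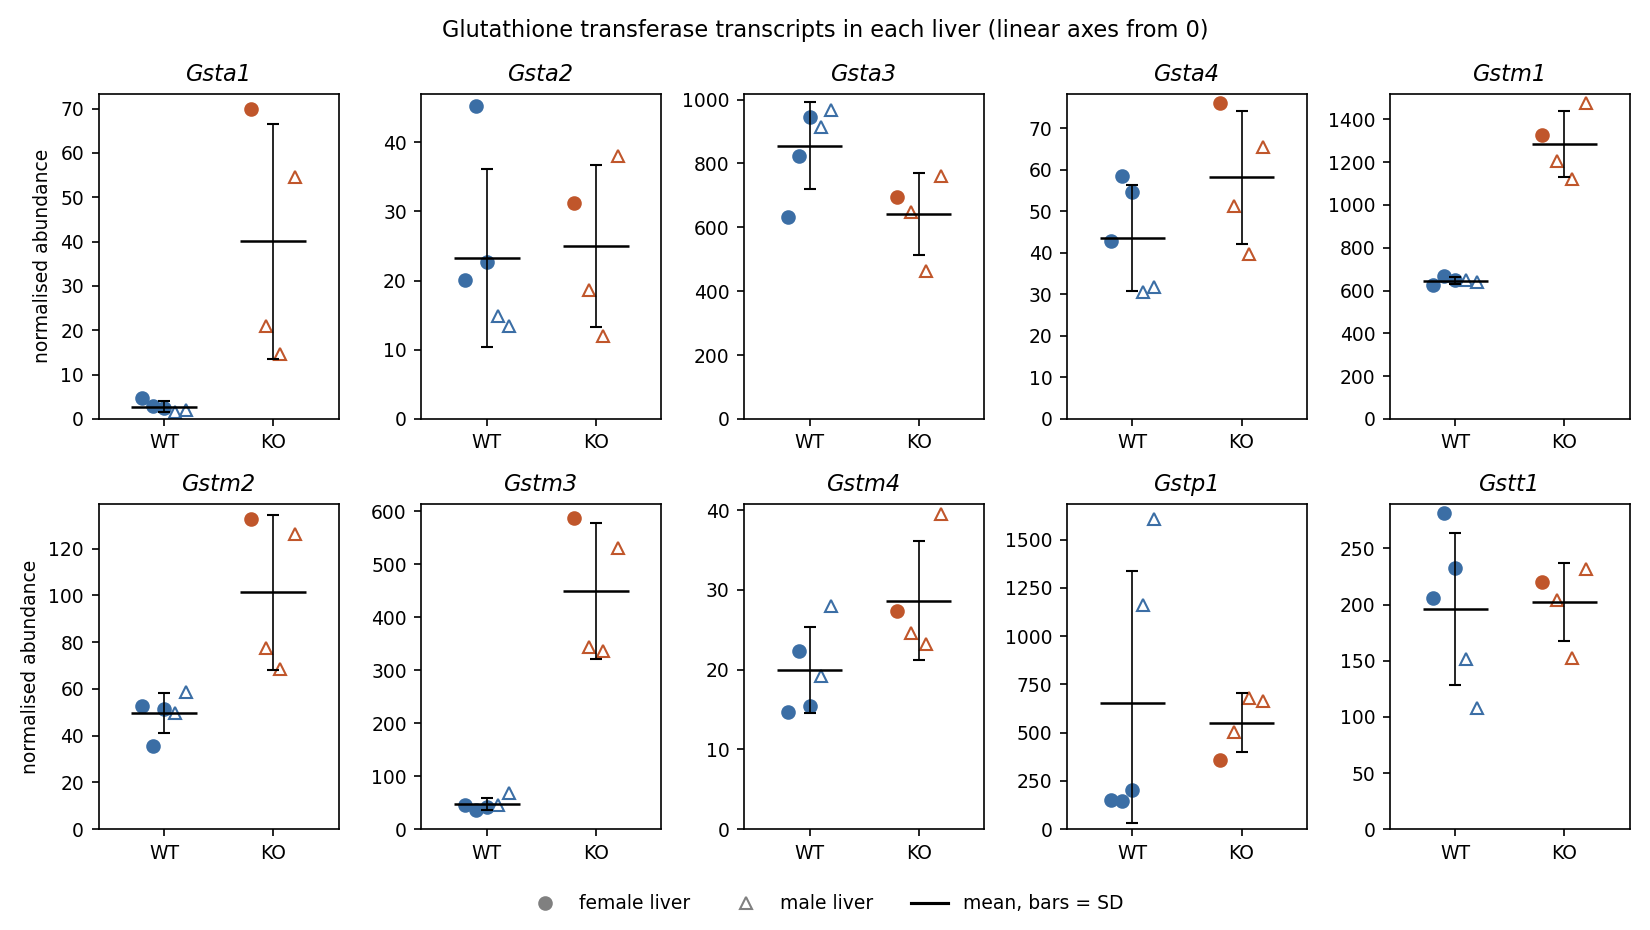
Normalised abundance (linear axes from 0) of each of the 10 members in every liver, WT in blue and KO in orange, filled circles for females and open triangles for males, with the mean and SD. Gsta1, Gstm1, Gstm2 and Gstm3 have no overlap between WT and KO, while WT Gstp1 falls into low females (144 to 201) and high males (1159.65 and 1608).

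Gsta1 encodes an alpha-class transferase that is scarce in the untreated liver. Its abundance was 70.0, 20.9, 14.7 and 54.6 in KO 1 to KO 4, and 4.76, 2.89, 2.52, 1.55 and 1.99 in WT 1 to WT 5. The lowest KO liver was above the highest WT liver, and the KO livers spread widely (40.0 ± 26.6, SD, n = 4, against 2.74 ± 1.24, n = 5). The log2 difference was 3.25 (SE 0.44). Depth was thin in WT, with normalised reads running from 18.5 to 835 across the 9 libraries.

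Gsta2, its near copy, had 31.1, 18.7, 12.03 and 37.9 in KO and 20.0, 45.3, 22.6, 14.8 and 13.4 in WT livers. The groups overlapped throughout, and the log2 difference was 0.11 (SE 0.40). WT 2 alone, at 45.3, stood above every other liver of either group. The row of the predicted gene Gm10639, which shares words with Gsta1 and Gsta2, averaged 5.39 in KO and 0.488 in WT. Because reads may be divided among such copies, the 3 rows were also added: the sums were 109, 43.5, 30.1 and 98.6 in KO and 25.8, 48.9, 25.5, 16.5 and 15.6 in WT livers. The KO mean of the sum was 2.66 times the WT mean, far below the ratio for Gsta1 alone, and WT 2 lay above KO 2 and KO 3. The Gsta1 value therefore stands only as far as its assignment apart from Gsta2, Gm10639 and Gm3776 does, which was not tested. Gm3776, in which 87.8% of the Gsta1 words occur, has no row here, so the sum cannot cover it.

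Gsta3, the main constitutive alpha-class transcript of mouse liver, was 696, 647, 462 and 761 in KO and 633, 823, 944, 913 and 968 in WT livers. It was lower in KO on average (642 ± 128, n = 4, against 856 ± 136, n = 5), with WT 1 below 3 of the KO livers. Its log2 difference of -0.42 (SE 0.17) became -0.02 with equal totals, where the median of all transcripts was 0.37, so relative to that median it was -0.45 on the deposited scale and -0.39 with equal totals.

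Gsta4, which acts on 4-hydroxynonenal and other products of lipid peroxidation, was 76.0, 51.3, 39.7 and 65.5 in KO and 42.8, 58.5, 54.6, 30.6 and 31.7 in WT livers. The groups overlapped when the sexes were pooled. Within each sex the KO livers were above the WT livers: KO 1 exceeded the 3 WT females, and the 3 KO males exceeded the 2 WT males. The log2 difference was 0.41 (SE 0.24), and 0.64 with sex in the model.

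Gstm1, the most abundant mu-class member here, was 1327, 1207, 1123 and 1478 in KO and 624, 667, 647, 649 and 639.6 in WT livers. The WT livers were nearly identical (645 ± 15.4, n = 5) and every KO liver lay well above them (1284 ± 154, n = 4). The log2 difference was 0.98 (SE 0.093). It was as large in males, at 1.97 times, as in females, at 2.05 times.

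Gstm3 had 587, 344, 336 and 531 in KO and 44.8, 35.9, 42.5, 46.6 and 67.6 in WT livers. The lowest KO value was several times the highest WT value, and the log2 difference was 3.20 (SE 0.22). KO males averaged 7.06 times the WT males, and the KO female was 14.3 times the WT females.

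Gstm2 had 133, 77.4, 68.4 and 126 in KO and 52.6, 35.6, 51.4, 49.6 and 58.6 in WT livers. The gap between the groups was narrow, from 58.6 to 68.4, and the log2 difference was 0.98 (SE 0.22). In males the ratio of means was 1.68 and in the females 2.86.

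Gstm4 had 27.3, 24.5, 23.2 and 39.5 in KO and 14.7, 22.4, 15.4, 19.2 and 28.0 in WT livers. WT 5 lay above 3 KO livers, so the groups overlapped, and the log2 difference was 0.51 (SE 0.21). Added together, Gstm1, Gstm2 and Gstm3 came to 1834 ± 301 in KO (n = 4) and 742 ± 15.9 in WT (n = 5), a ratio of 2.47 with no overlap. This sum made up 0.240% of the library total in KO and 0.0741% in WT. It leaves out Gm8834, Gstm2-ps1 and Gm6665, the genes in which the largest shares of the words of Gstm3, Gstm1 and Gstm2 occur.

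Gstt1, a theta-class enzyme known for conjugating small halogenated compounds, was 220.1, 204, 153 and 232 in KO and 206, 281, 233, 151 and 108 in WT livers. The groups overlapped, with a log2 difference of 0.10 (SE 0.26). In males the KO mean was 1.51 times the WT mean, and in females the KO liver was 0.917 times the WT mean.

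Gstp1 is the pi-class enzyme, known as the main male-biased transferase of mouse liver. It was 356, 504, 680.3 and 665 in KO and 150.25, 144, 201, 1159.65 and 1608 in WT livers. All KO livers lay between the WT females and the WT males, the KO female included, so the pooled log2 difference of 0.48 (SE 0.75) describes neither sex. KO males averaged 616 ± 97.7 (n = 3) and WT males 1384 (n = 2), a WT to KO ratio of 2.24. The KO female was 2.16 times the WT female mean of 165 ± 30.9 (n = 3). Its copy Gstp2 was low throughout, at 1.65 to 4.49 in KO and 0.957 to 2.98 in WT livers, and its log2 difference of 0.55 had an adjusted p of 0.11 in limma (0.028 without WT 5). The sum over all Gstp1 and Gstp2 rows gave a KO to WT ratio of 0.847.

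The rule used the KO and WT contrast and not sex, so a sex term was fitted. Sex was unbalanced between the groups (3 males and 1 female in KO, 2 males and 3 females in WT). The sex term is therefore not fully independent of the choice of members. In the limma fit with genotype and sex, 0 of the 10 members were called and 4 had an unadjusted p under 0.05, while 0.457% of all transcripts were called. The largest of their differences was that of Gstp1, at a log2 of 2.18 higher in males (SE 0.41) with an unadjusted p of 0.000485 and an adjusted p of 0.067. The adjusted p ranged from 0.000597 to 0.23 when each library was left out; without KO 1, the only KO female, it was 0.000597 with a log2 of 3.06. Without KO 1 the KO livers are all male, so the 3.06 comes from the WT livers only. A fit to the WT livers alone therefore gave the same log2 difference, with a limma adjusted p of 0.0058. The male to female ratio of means in WT livers was 8.38. In KO livers the ratio was 1.73, from 1 female. With equal totals, Gstp1 (log2 2.00, adjusted p = 0.044) and Gsta4 (log2 -0.83, adjusted p = 0.022) passed the limma threshold for sex.

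Whether the KO minus WT difference itself differed between the sexes was fitted as an interaction, which rests on KO 1 as the single KO female. The interaction compares KO minus WT differences, the contrast by which the members were chosen, so it is not independent of that choice. In limma 0 of the 10 members were called and 2 had an unadjusted p under 0.05, while 0.119% of all transcripts were called. For Gstp1 the interaction was -2.28 on the log2 scale (SE 0.34), with an unadjusted limma p of 0.000174 and an adjusted p of 0.095, and 0.039 with equal totals. For Gstm3 it was -1.02 (SE 0.38), with an unadjusted limma p of 0.028 and an adjusted p of 0.40. For Gstp1 every KO male was below both WT males, and the KO female was above every WT female.

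**Figure D2:**
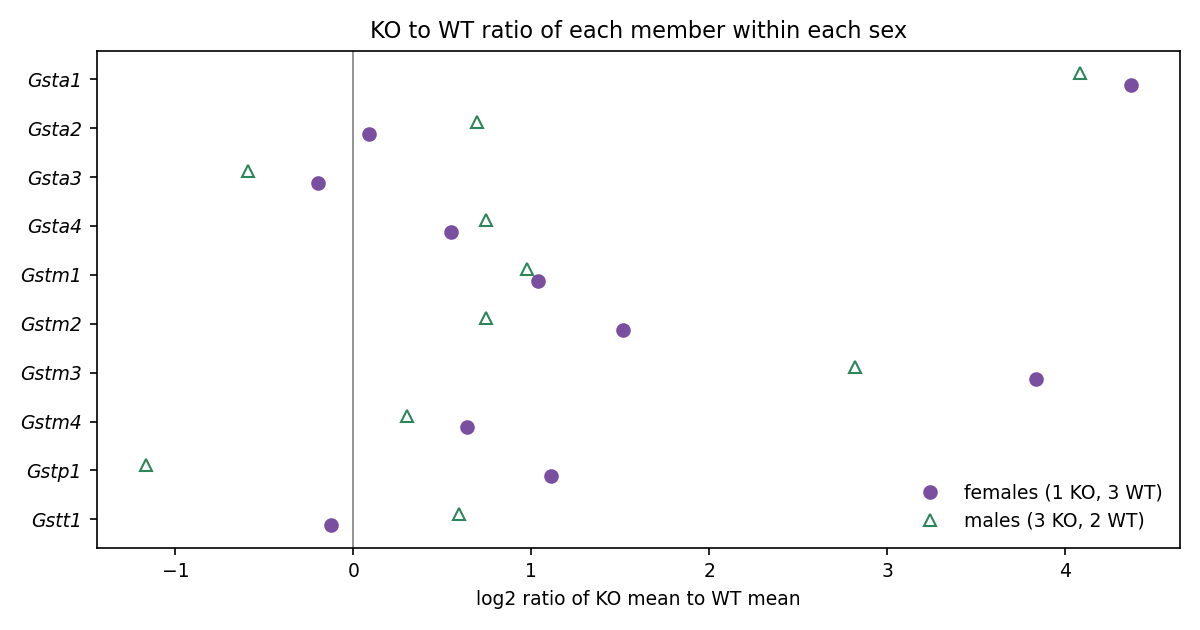
Log2 ratio of the KO mean to the WT mean of each member, separately in females (filled circles, 1 KO and 3 WT livers) and males (open triangles, 3 KO and 2 WT livers). Gstp1 lies on opposite sides of 0 in the sexes, and Gsta1, Gstm1, Gstm2 and Gstm3 lie above 0 in each.

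Markers of liver sex were set beside Gstp1. The summed level of 8 male-liver markers was 2989 to 3360 in WT males, 1752 to 1927 in KO males, 715 in the KO female and 345 to 658 in WT females. The summed level of 9 female-liver markers was 2362 to 2594 in WT females, 2584 in the KO female, between 212 and 459 in KO males and between 7.59 and 52.0 in WT males. The male sum had the same order of groups as Gstp1, but its markers did not move alike. Of the 8, 3 were higher in the KO female than the WT female mean, among them Cyp2d9 (437 against 244) and Selenbp2 (139.7 against 15.7). The other 5 were lower, among them Slco1a1 (2.41 against 47.2) and Elovl3 (0.382 against 5.32). The part of these markers in the Gstp1 values was not tested.

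**Figure D3:**
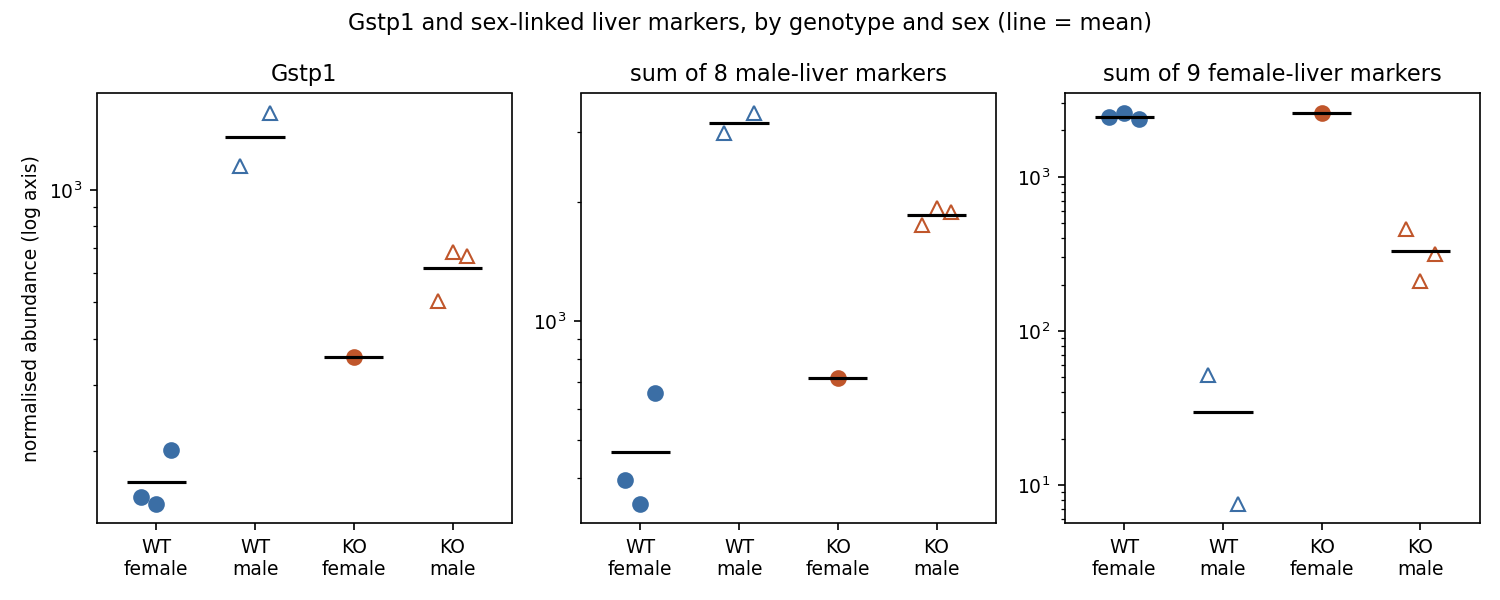
Gstp1, the summed male-liver markers and the summed female-liver markers (normalised abundance, log axes) in WT females, WT males, the KO female and KO males, with a line at each mean. KO Gstp1 (356 to 680.3) lies between the WT sexes, and in KO males the male-marker sum is below and the female-marker sum above its WT male range.

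Within the WT group, the 3 females and 2 males did not overlap for 6 members, beside 29.7% of all transcripts. Gstp1 and Gstm3 were higher in WT males, at 8.38 and 1.39 times. Gsta1, Gsta2, Gsta4 and Gstt1 were higher in WT females, at 1.91, 2.08, 1.67 and 1.85 times. Apart from Gstp1, no member passed limma's threshold for sex in the WT livers alone; the adjusted p values of these 5 ran from 0.18 to 0.43.

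Within the KO group the livers did not behave alike, an order noticed after the values were seen. KO 1 and KO 4 both lay above KO 2 and KO 3 for 9 of the 10 members, the exception being Gstp1, while 17.2% of all transcripts had this order. With equal totals the counts were 8 of 10 members and 6.16% of transcripts. Among the 14 other transferases tested, 5 had this order on either scale. The ratio of the mean of KO 1 and KO 4 to that of KO 2 and KO 3 was 3.50 for Gsta1, 2.25 for Gsta2, 1.78 for Gstm2 and 1.65 for Gstm3, and 1.204 to 1.56 for the other 5. KO 4 had the largest total among the KO libraries and KO 1 a smaller one than KO 2, and the labels give no property that sets this pair apart. Without KO 1 and KO 4, 3 members were called higher, a count from which nothing is read either.

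The order of the members by level per length changed. In WT livers Gsta3 averaged 856, Gstp1 653 and Gstm1 645, with ranges that overlapped from each to the next. The place of Gstp1 rests on a mean over both sexes: in WT females it averaged 165, below Gstt1 at 240.1, and in WT males 1384, above every other member. Gstt1, at 196, was apart from Gstm1, overlapped Gstp1, and was apart from the group of Gstm2, Gstm3, Gsta4, Gsta2 and Gstm4 (49.5 down to 20.0), whose neighbours overlapped, and Gsta1 was lowest at 2.74. In KO livers Gstm1 led at 1284, apart from Gsta3 at 642, Gstp1 at 551 and Gstm3 at 449, whose neighbours overlapped. Gstt1 at 202 and then Gstm2 at 101, Gsta4, Gsta1, Gstm4 and Gsta2 at 25.0 followed. Gstm3 thus moved from beside Gstm2 to beside Gstp1. The 10 members together, 1 row each, made up 0.442% of the library total in KO and 0.248% in WT. The KO library totals were smaller. On the deposited scale the sum of the 10 averaged 3381 in KO and 2537 in WT, a ratio of 1.33. The groups overlapped, with WT 4 at 3036 and WT 5 at 3525 above the lowest KO liver at 2912.

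For Gsta1 and Gstm3, the 2 members with the largest differences, the tested transcripts of most similar pattern were found, by the root mean square difference of log2 values centred over the 9 libraries. Gsta1 was nearest to Ptgds (0.32), a prostaglandin D synthase, Tspan8 (0.46), a tetraspanin, and Mgst2 (0.49), a microsomal glutathione transferase. Gstm3 was nearest to Mgst2 (0.27), Pls1 (0.34), an actin bundler, and Afp (0.34), the fetal serum protein. Gsta1 and Gstm3 differed from each other by 0.57. Both were picked for their KO minus WT difference, so their nearest transcripts carry a similar difference by construction, and nothing is read from the matches. Mgst2 (mean 0 in WT) and Tspan8 (mean 0.247 in WT) passed the filter only through their KO values.

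Among the transferases outside the 10 members, 19 of 22 listed genes were in the table and 14 were tested. Beside the counts of this and the other 5 lists stand 21.4% of all transcripts called higher and 14.5% lower. The lists were chosen with results of this contrast known, so their counts are a description and nothing is read from them. Of the 14, 4 rose and 2 fell (6 and 0 with equal totals), with a median log2 difference of 0.37 beside 0.03 for all transcripts. Mgst2 was listed at 0 in every WT liver and at 9.43, 6.12, 4.23 and 8.09 in KO livers. Alox5ap, the protein that presents arachidonate to 5-lipoxygenase, rose by a log2 of 1.505 (SE 0.16, limma adjusted p = 0.000134), and Gstm5, a mu-class enzyme, by 0.75 (SE 0.21, limma adjusted p = 0.022, and 0.062 without KO 4). Gstcd, a protein with a transferase-like domain, was the fourth that rose, by 0.44 (limma adjusted p = 0.041); it is named because the count was small.

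The 2 that fell were Gstz1, the maleylacetoacetate isomerase of tyrosine breakdown, and Gsto1, an omega-class reductase. Gstz1 was 371, 380.3, 323 and 364 in KO and 512, 588, 587, 552 and 537 in WT livers, without overlap, a log2 difference of -0.63 (SE 0.081, limma adjusted p = 0.000371). Gsto1 was 59.3 to 71.8 in KO and 84.5 to 120.1 in WT livers, a log2 difference of -0.61 (SE 0.11, limma adjusted p = 0.0025). With equal totals neither passed, at limma adjusted p of 0.14 and 0.26. Mgst1, the abundant microsomal enzyme (3037 ± 768 in KO, n = 4, and 3665 ± 1006 in WT, n = 5), and the mitochondrial and peroxisomal Gstk1 (139 ± 25.7 and 155 ± 20.9) did not pass, with limma adjusted p of 0.42 and 0.41. Their differences changed sign between scales. Mgst3, a microsomal enzyme of the leukotriene pathway, was the 1 list transferase called for sex, at a log2 of -1.27 in males (SE 0.17, limma adjusted p = 0.018); it is named for being the only one.

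Glutathione itself is made by glutamate-cysteine ligase and glutathione synthetase. Of 14 tested genes of synthesis and turnover, 4 rose and 2 fell (median log2 0.23). Gclm, the modifier subunit of the ligase, was 77.7, 74.9, 70.8 and 66.0 in KO and 53.0, 43.0, 57.2, 47.3 and 54.4 in WT livers. It rose without overlap by a log2 of 0.50 (SE 0.096, limma adjusted p = 0.0032). Gclc, the catalytic subunit, had a log2 difference of 0.31 (SE 0.24, limma adjusted p = 0.33, and 0.038 with equal totals). Gss, the synthetase, rose by 0.49 (limma adjusted p = 0.0198; 0.059 without KO 2 and 0.062 without KO 3). Bhmt, which remethylates homocysteine, rose by 0.89 (limma adjusted p = 0.028), a call lost without KO 2, KO 4, WT 1, WT 3 or WT 4, with limma adjusted p of up to 0.076. Gsr, which reduces oxidised glutathione, had a log2 difference of 0.08 (limma adjusted p = 0.66). The 2 lower genes, Cbs of transsulfuration and Anpep, an aminopeptidase of turnover, had log2 differences of -0.30 and -0.25 (limma adjusted p of 0.044 and 0.050), and both changed sign with equal totals. The call of Cbs held in 4 and that of Anpep in 2 of the 9 fits that each left out 1 library. With sex in the limma model 2 genes of this list were called higher and 0 lower (2 lower at an unadjusted p under 0.05), and with equal totals 8 and 0.

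Of 15 tested peroxidases, glutaredoxins and peroxiredoxins, 4 rose and 2 fell (median log2 -0.04). Gpx7, a peroxidase of the endoplasmic reticulum, was 22.7, 18.2, 20.8 and 25.9 in KO and 3.67, 2.09, 2.18, 2.86 and 2.50 in WT livers. Its rise of 2.65 on the log2 scale (SE 0.14, limma adjusted p = 1.92e-06) was the largest of this list. Gpx3, the plasma enzyme, and Gpx8 rose by 1.31 and 0.86 (limma adjusted p of 0.000190 and 0.0049). Gpx4, which reduces lipid hydroperoxides, was the fourth, named because the count was small, with a log2 rise of 0.45 (limma adjusted p = 0.0057). Glrx and Prdx4 fell by a log2 of 0.56 and 0.42 (limma adjusted p of 0.0082 and 0.031), and neither passed with equal totals, where 9 genes of the list were called higher and 0 lower. The call of Prdx4 was also lost without KO 2, KO 3, KO 4 or WT 4, with limma adjusted p of up to 0.087.

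NRF2 drives many transferase genes and KEAP1 holds it back. Of 25 tested genes of this axis, 10 rose and 0 fell (median log2 0.26). In males alone 6 were called higher and 1 lower. With all 9 libraries none was lower at an unadjusted p under 0.05 in limma or at the authors' deposited q (0 in each), and with equal totals 18 were called higher and 0 lower. The 3 with the smallest adjusted p were Pgd and G6pdx of the pentose phosphate pathway and Sqstm1, a KEAP1-binding adaptor. They rose by 0.82, 0.64 and 0.70 on the log2 scale (limma adjusted p of 0.000376, 0.000864 and 0.0011). Nfe2l2, which encodes NRF2, was 38.8, 39.0, 51.7 and 43.9 in KO and 32.2, 26.4, 31.7, 36.4 and 19.2 in WT livers, a rise of 0.58 (SE 0.17, limma adjusted p = 0.028). That call was lost without KO 3, KO 4 or WT 2, with limma adjusted p of up to 0.083. Keap1 had a log2 difference of 0.18 (limma adjusted p = 0.14). Nqo1, a standard NRF2 target, had one of 0.27 (limma adjusted p = 0.46) and passed with sex in the model (0.53, limma adjusted p = 0.035).

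Of 13 tested genes of the CAR, PXR and AHR axis, 4 rose and 1 fell (median log2 0.11). Ahr was 12.5 to 16.1 in KO and 5.88 to 8.92 in WT livers, a log2 rise of 0.80 (SE 0.13, limma adjusted p = 0.0011). Its target Cyp1a2 rose by 0.82 (SE 0.13, limma adjusted p = 0.0012), while Tiparp, another AHR target, fell by 0.44 (limma adjusted p = 0.024). The Tiparp call was lost without KO 2, KO 4, WT 1 or WT 3 (limma adjusted p of up to 0.067) and with equal totals (0.53). Cyp2c55, a target of CAR and PXR, rose by 1.90 (SE 0.41, limma adjusted p = 0.0059, and up to 0.017 with 1 library left out). Its KO to WT ratio of means was 11.2 in females, from KO 1 alone, and 1.80 in males. The log2 interaction was -2.45, and in males alone Cyp2c55 did not pass (limma adjusted p = 0.052). The receptors Nr1i3 (CAR) and Nr1i2 (PXR) had log2 differences of -0.74 and 0.07 (limma adjusted p of 0.15 and 0.83), and Nr1i3 passed without WT 5 (-1.06, limma adjusted p = 0.0049).

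Of 7 tested transporters of conjugates, 1 rose and 2 fell (median log2 -0.19). Abcb1b, a P-glycoprotein, was 0.724 to 1.66 in KO and 1.44 to 4.81 in WT livers, a log2 difference of -0.96 (SE 0.25, limma adjusted p = 0.014). Abcc6 was lower by a smaller amount, -0.36 (limma adjusted p = 0.021), and did not pass without KO 1 or KO 3 (0.057 and 0.061) or with equal totals (0.94). Over all 6 lists, 27 of 88 tested genes rose and 9 fell on the deposited scale, and 50 were called higher and 1 lower with equal totals. Over all transcripts the corresponding counts were 2345 higher and 1589 lower, and 5030 higher and 301 lower. With a minimum mean of 5 they were 1231 higher and 1358 lower.

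**Figure D4:**
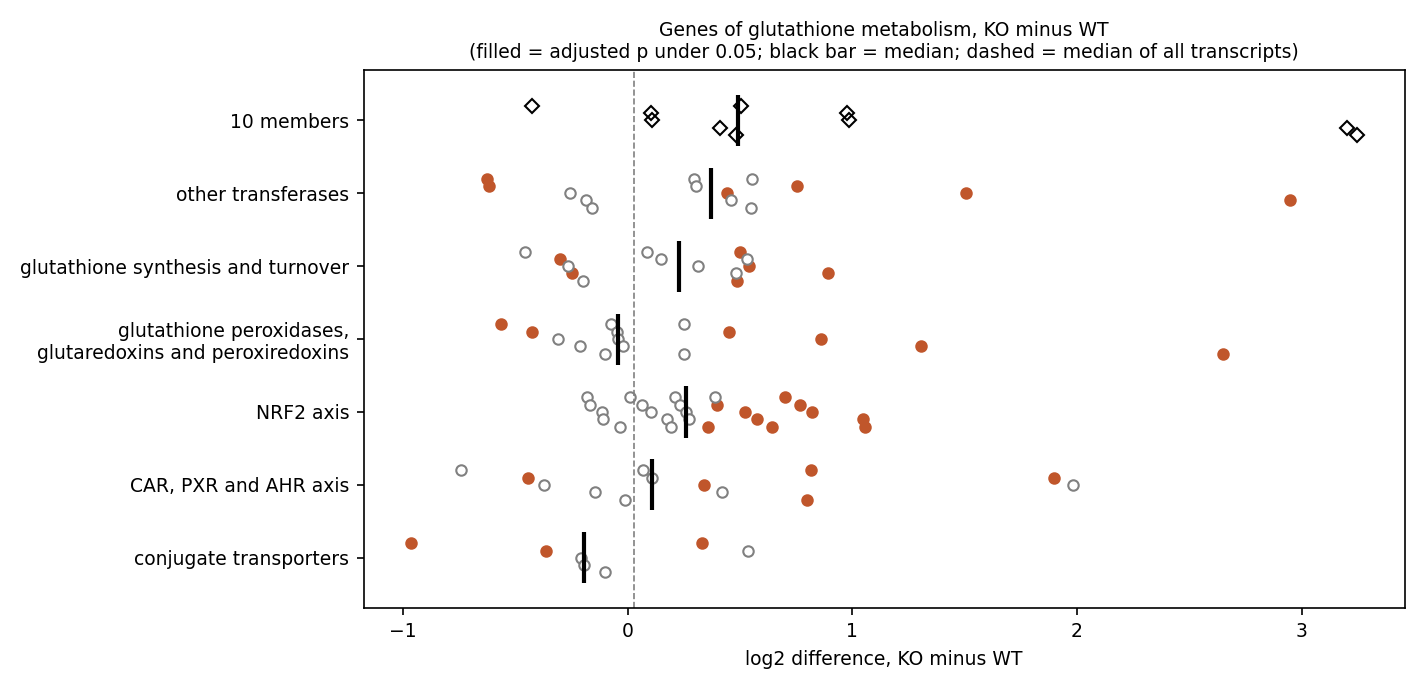
Log2 difference, KO minus WT, of the 10 members (open diamonds, not tested) and of the tested genes of 6 glutathione-related lists (filled circles passed limma at an adjusted p of 0.05, open circles did not), with each list's median as a black bar and the median of all transcripts (0.03) as a dashed line. The 10 NRF2-axis genes that passed with all 9 libraries lie above 0.

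Promoters of 9 of the 10 members were matched in the RefSeq table of GRCm38.p6, 11 start sites in all, each from 250 bases before to 50 after the start. The core of the element that NRF2 binds with its Maf partner, TGACNNNGC, was searched on both strands. Among the members' windows it was found in that of Gsta3 alone, as TGACATTGC at 121 bases before the start on the gene's strand. It was found in 12.4% of 32851 promoters of this length. The STAT motif TTCNNNGAA was found in Gsta1 alone, 162 bases before the start, and in 8.30% of promoters. The Gsta1 and Gsta2 promoters were 74.6% identical, less alike than their transcripts.

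In whole liver, fewer cells of a type and less RNA per cell cannot be told apart, and markers of other cell types moved with the KO group. The summed level of 8 cholangiocyte markers was 561 to 935 in KO and 37.1 to 62.5 in WT livers. Spp1 made up most of it (mean 710 in KO and 40.6 in WT), and 4 of 5 tested markers rose, among them Epcam and Krt19, with Krt7 and Cftr near 0 in each group. For 8 stellate markers the sum ran from 235 to 289 across KO livers and from 108 to 198 across WT livers (7 of 8 rose). Dcn made up most of that sum (mean 168 in KO and 131 in WT), and it was the 1 marker not called (limma adjusted p = 0.14). For 7 Kupffer and macrophage markers the sum ran from 152 to 188 in KO and from 93.4 to 129 in WT livers (7 of 7 rose). The hepatocyte sum was 52722 to 70203 in KO and 47939 to 115376 in WT livers (of 7 tested markers 1 rose and 1 fell). By sex, the KO female at 70203 lay below the WT females at 92207 to 115376. KO males, at 52722 to 66423, overlapped WT males at 47939 to 69287. The part of these cell types in the transferase values was not tested.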

How the data were processed

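PolyA RNA of 9 livers was analysed, with genotype and sex as the labels give them. The submitters' processing notes name kallisto, sleuth and mm10, but the sources used here give no version, transcript set or filter. The library columns, as deposited by the authors, name no unit; from their values they are treated as a signal that the authors normalised per transcript length and library, and not as counts. The authors deposited p-values and q-values and, on a natural log scale, a WT minus KO coefficient, its error and a mean, which were converted here to KO minus WT in log2.

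Transcripts with a mean of at least 1 (10950) entered limma 3.58.1 under R 4.3.3 as log2(value + 1), a scale that understates differences of low transcripts. The prior variance followed a trend, and a call is a Benjamini-Hochberg adjusted p under 0.05 over all of these transcripts. Genotype was the only term for KO minus WT; sex and their interaction were added for the other tests. On simulated data the limma step was tested with 200 planted changes per fold size. Shared 31-base words were counted over GENCODE M21 transcripts, and sequences were aligned with Biopython 1.88. Depth was read from the authors' mean on the log scale.

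The members and gene lists were chosen with earlier results of these data known. Genes were named by a rule: all members; from each list, for either direction, up to 3 called genes ranked by adjusted p; Gclc, Gclm, Gsr, Nfe2l2, Keap1, Nqo1, Gstp2, Gstz1, Gstk1, Mgst1, Nr1i2 and Nr1i3; and for the 2 members of largest difference the 3 nearest patterns. Alternatives were other filters (none, or a mean of at least 5), pseudocounts of 0.1 and 5, equal totals, no trend, each library left out, sex as a covariate, a replicate block, WT alone, males alone and the authors' own table. Added after seeing the data were identical rows counted once, females alone (values only), and leaving out KO 1 with KO 4. No 2 libraries had identical values (0 pairs; highest Pearson r 0.981). Endothelial markers (1 of 6 rose and 1 fell), lymphocyte markers (0 of 1) and neutrophil markers (2 of 2 rose) were also summed. Single values of 2 list genes are not reported here.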

Additional observations from a re-analysis of the deposited data

Results flagged for a closer look

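Among the members and the genes named by the rule, 2 results pointed in opposite directions in the sexes. Every KO male lay beyond the WT males on one side, and the KO female beyond every WT female on the other. Osgin1 and Por, list genes that the rule did not name, had this order too, with log2 interactions of -2.13 and 1.43. For Gstp1 every KO male was below both WT males while the KO female was above every WT female, and the interaction in limma was -2.28 on the log2 scale, with an adjusted p of 0.095 that missed the threshold. For Nr1i2, which encodes PXR, the males were higher in KO and the KO female lower than the WT females; the interaction was 0.90, with an limma adjusted p of 0.35.

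In 4 of 90 gene and group combinations examined, 1 liver stood far from the rest of its group by Dixon's criterion; chance flags about 1 in 20 groups. Gsta2 was 45.3 in WT 2, against 13.4 to 22.6 in the other WT livers. Ahr was 5.88 in WT 2, against 8.38 to 8.92. Mgst1 was 4183 in KO 4, against 2556 to 2741 in the other KO livers. Nr1i3 was 25.8 in KO 2, against 16.0 to 16.5.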

How the results depend on the processing

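The count of members called higher was 3 to 6 under the alternatives run; 1 member was called lower without WT 1 (Gsta3) and 1 in males alone (Gstp1). Over all transcripts, 3934 were called for KO against WT, 2589 with a minimum mean of 5 (1231 higher and 1358 lower, against 2345 and 1589) and 2216 in males alone, where the lists had 18 higher and 4 lower; leaving out 1 library gave 3114 to 4054. Equal totals gave 52 list genes higher and 1 lower, including genes that passed the filter only then. The lists' lower calls, 9 in all, ran from 5 (without KO 3) to 10 (without WT 5) with 1 library left out and were 5 without KO 1 and KO 4. Sex was called for 50 transcripts, for 28 without a filter, 85 with equal totals and 27 to 142 with 1 library left out, with 142 without KO 1 and 27 to 32 without KO 4, WT 1, WT 3, WT 4 or WT 5. The interaction was called for 13, for 169 without a filter, 3 with a minimum mean of 5, and 3 to 31 with 1 library left out (31 without WT 4, at most 6 without KO 2, KO 3, KO 4, WT 1, WT 2 or WT 3); without KO 1 it could not be fitted. The cause of these shifts was not tested.

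Signs reversed under equal totals for Cbs (0.094), Anpep (0.13), Gstk1 (0.24) and Mgst1 (0.14). They reversed in males alone for Gsr (-0.10), Gstk1 (0.071) and Nr1i3 (0.061). With 1 library, or KO 1 and KO 4 together, left out, Gsr ran from -0.069 (without both) to 0.18 and Nr1i2 from -0.087 (without KO 2) to 0.19. None of these reversed values passed the threshold. Of 686 named-gene values under alternatives, 581 kept direction and side of the threshold.

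Whether replicate numbers pair the samples could not be decided: deviations of same-numbered livers correlated at 0.23, 0.08, -0.18 and 0.11. The own number was the best match for numbers 1 and 4 and not for 2 and 3, and the sources do not give litters. With the number as a block, 3602 transcripts and 5 members were called, with 30 list genes higher and 10 lower, 0 transcripts were called for sex in limma (637 at an unadjusted p under 0.05), and Nr1i2 was -0.054. Depth limits Gsta1 in WT most, with a lowest value of 18.5 normalised reads.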
